A study of Mus musculus with 36 samples.

Results

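Eosinophils of the small intestine were compared with those of the colon across all genes of the tissue expression table. The comparison rested on 7 libraries, 4 from small intestine (replicates 1, 2, 3 and 4) and 3 from colon (replicates 1, 2 and 4), out of 24 tissue libraries and 36 samples in the series. The cells were labelled total eosinophils and came from steady-state wildtype C57BL/6 mice of 8 to 12 weeks, with males and females pooled, so the sexes cannot be separated. The libraries, made by the full-length cDNA method Smart-seq2, are given as TPM, a level that relates reads to transcript length and scales every library to a fixed total. A further 11 libraries held small intestine eosinophils from C57BL/6 NMUR1-TdT reporter mice of the same age range, sorted as Nmur1+ (5 libraries) or Nmur1- (6 libraries). Whether replicates came from separate mice is not in the labels. The p-values therefore reflect library-to-library spread only, some of which may be technical.

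Eosinophils leave the bone marrow mature, pass through the blood and settle in the intestinal lamina propria, where a large share of the eosinophils of a healthy mouse resides. The small intestine and the colon differ in the diet-derived ligands, bile acids, bacterial load and epithelium that these cells meet. Gut eosinophils are known for CD11c, PD-L1 and Siglec-F on the surface and for a longer life than blood eosinophils, and their blood counterparts for low activation.

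The libraries of both tissues carried the transcripts that define the labelled cell type. Siglecf, the lectin used to sort mouse eosinophils, had 217.68, 221.31, 292.78 and 347.1 TPM in small intestine, against 245.04, 295.86 and 347.07 TPM in colon, a difference within the spread of both tissues (limma adjusted p = 0.715). Il5ra, the interleukin 5 receptor chain, had 40.23 to 57.23 TPM in small intestine, against 57.85 to 74.03 TPM in colon (limma adjusted p = 0.266). The mRNA of eosinophil peroxidase, Epx, was close to 0 in the gut, with 0.3 to 1.38 TPM in small intestine and a listed value of 0 in all 3 colon libraries. Of 21 eosinophil identity genes tested 1 was higher and 9 lower in small intestine (of all genes tested, 5.63% were higher and 7.1% lower), with 5 lower without small intestine replicate 1. The eotaxin receptor Ccr3 had 483.96 to 529.16 TPM in small intestine, against 667.49 to 770.2 TPM in colon, so the groups did not overlap, as in 22.5% of all genes tested. Its log2 change, small intestine minus colon, was -0.51 ± 0.15 (SE, limma adjusted p = 0.0251), and the adjusted p was 0.0648 without small intestine replicate 1, 0.0959 without colon replicate 1 and 0.0947 without colon replicate 2.

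The small intestine libraries had 8818 ± 79.2 genes (SD, n = 4) at 1 TPM or above and the colon libraries 8784 ± 76.9 (SD, n = 3), a difference within the spread (two-sided exact permutation p = 0.6). Ribosomal protein genes held 11 to 11.9% of TPM in small intestine, against 9.88 to 10.5% in colon. The 10 highest genes held 12.9 to 15.4% of TPM in small intestine and 14.7 to 15.7% in colon. TPM keeps no sequencing depth, so the depth behind each value is unknown.

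Of 9806 genes tested, 1248 (12.7%) passed a Benjamini-Hochberg adjusted p under 0.05 in limma on the log2(TPM + 1) scale, in a fit of all 24 tissue libraries with a common spread. Of these, 552 (5.63% of genes tested) were higher and 696 (7.1%) lower in small intestine than in colon. On this scale the change of a low gene is understated. Over the genes tested the median change was 0.02. The 4 small intestine and 3 colon libraries did not overlap in TPM for 2206 genes (22.5%). Among the genes that passed, the median absolute log2 change was 1.40, and 913 changed at least 2-fold on this scale. Changes of at least 8-fold were seen in 56 genes higher and 40 genes lower in small intestine.

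**Figure D1:**
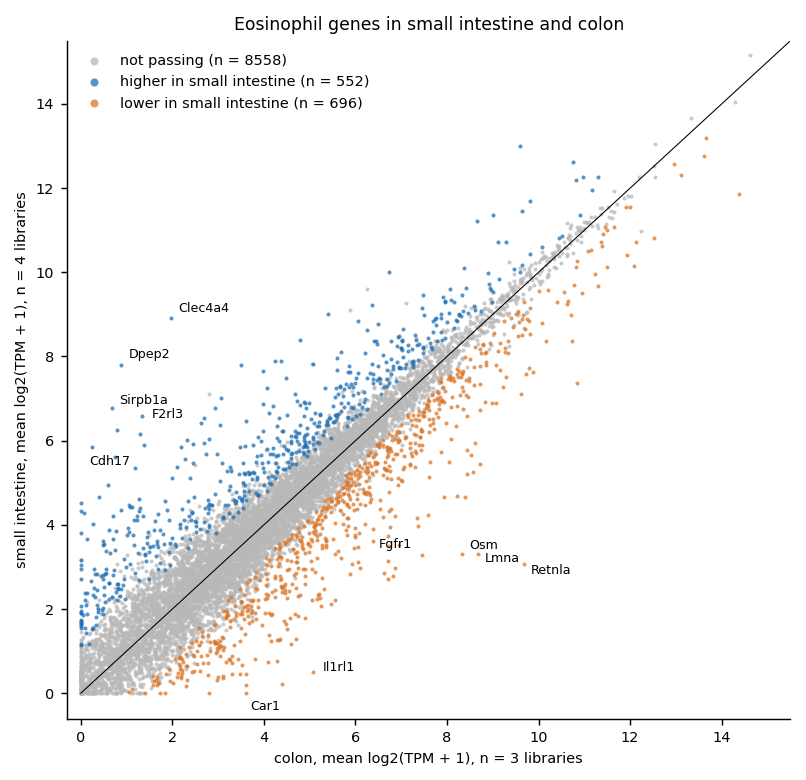
Mean log2(TPM + 1) of each of the 9806 genes tested in small intestine (vertical axis, 4 libraries) and colon (horizontal axis, 3 libraries), with the 552 genes higher in small intestine in blue, the 696 lower in orange and the others in grey; the line marks equal levels. Clec4a4 and Dpep2 stand farthest above the line, and Retnla and Lmna farthest below it.

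In the number of genes called, this pair was the second closest of the 21 pairs of tissues. Spleen and blood eosinophils differed in 107 genes (1.09%), colon and skin in 1788 (18.2%), small intestine and skin in 3161 (32.2%), and lung and bone marrow, the farthest pair, in 5222 (53.3%). Colon was thus called apart from skin in fewer genes than small intestine was. Pairs share libraries and differ in their number of libraries, so these counts are a description and were not tested against each other.

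The transcripts most raised in small intestine over colon coded for surface receptors and enzymes. The strongest rise was that of Clec4a4, a C-type lectin receptor with an inhibitory signalling motif (ENSMUSG00000059639.2, chr6:122990367-123024105, plus strand, build mm10). It had 521.21, 508.57, 404.87 and 513.08 TPM in small intestine replicates 1 to 4, against 7.59, 1.93 and 1.37 TPM in colon replicates 1, 2 and 4. The log2 change was 6.96 ± 0.43 (SE, limma adjusted p = 9.46e-12). Non-overlap of the groups was a condition for choosing the largest rises. Dpep2, a membrane dipeptidase that converts leukotriene D4 to leukotriene E4, had 240.3, 211.41, 204.22 and 229.04 TPM, against 0.57, 1.12 and 0.9 TPM in colon. Its libraries were tightly grouped within each tissue, and the log2 change was 6.91 ± 0.45 (SE, limma adjusted p = 2.78e-11). Clec4a4 belongs to a cluster of similar lectin genes, and Sirpb1a, Klra17 and Mrgpra2a also have near copies, so how reads were shared between copies could affect their values.

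Other large rises were in cell-surface molecules. Cdh17, an intestinal cadherin that binds integrins, had 79.06, 48.89, 42.89 and 62.67 TPM in small intestine, against 0.48, 0.15 and 0 TPM in colon (log2 change 5.60 ± 0.33, SE). Cd22, an inhibitory Siglec best known from B cells, had 76.66, 78.17, 86.99 and 61.41 TPM, against 1.04, 0.28 and 0.99 TPM (5.46 ± 0.41). F2rl3, the thrombin receptor PAR4, had 97.44, 85.94, 97.16 and 99.97 TPM, against 3.14, 2.22 and 0.23 TPM (5.24 ± 0.39). Non-overlap of the groups, seen in 22.5% of all genes tested, was a condition for choosing these genes. Sirpb1a, an activating receptor of the SIRP family, had 95.4 to 128.55 TPM, against 0 to 1.27 TPM in colon, and Jaml, an adhesion molecule of leukocyte passage through epithelium, 24.36 to 36.17 TPM, against 0 to 2.48 TPM. Clec4b2, a further C-type lectin, had 38.49 to 77.36 TPM in small intestine, against 0.38 to 3.69 TPM in colon. Limma adjusted p was at most 5.94e-08 for these genes except Cdh17. Cdh17 was below 1 TPM in every colon library and passed the filter on low values only through small intestine. Its limma p-value is therefore not given as support.

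An enzyme of thyroid hormone activation showed the same tight grouping. Dio2, which converts thyroxine to triiodothyronine, had 69.08, 68.24, 70.34 and 76.49 TPM in small intestine, against 1.37, 1.76 and 1.23 TPM in colon (log2 change 4.88 ± 0.33, SE, limma adjusted p = 4.87e-11).

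Nmur1 and Klra17 were detected in all small intestine libraries and listed at 0 in all colon libraries. Nmur1, which codes for a neuromedin U receptor (ENSMUSG00000026237.5, chr1:86386303-86426228, minus strand, build mm10), had 47.39, 7.55, 24.4 and 26.05 TPM in small intestine. Replicate 2 was the lowest of the 4. The groups did not overlap, as in 22.5% of all genes tested. Full separation fixes the two-sided exact permutation p at 0.0286, the smallest that 4 against 3 libraries allow. Its fitted log2 change of 4.53 depends on the pseudocount and is not a fold. Both genes passed the filter on low values through small intestine alone. Their limma p-values are therefore not given, and the permutation p of Nmur1 is no support either. Klra17, a lectin-like receptor of the Ly49 family, had 40.96, 6.72, 29.04 and 15.57 TPM, and replicate 2 was again the lowest. Klra17 was also listed at 0 in all 17 libraries of the other 5 tissues, and Nmur1 in 16 of them.

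**Figure D2:**
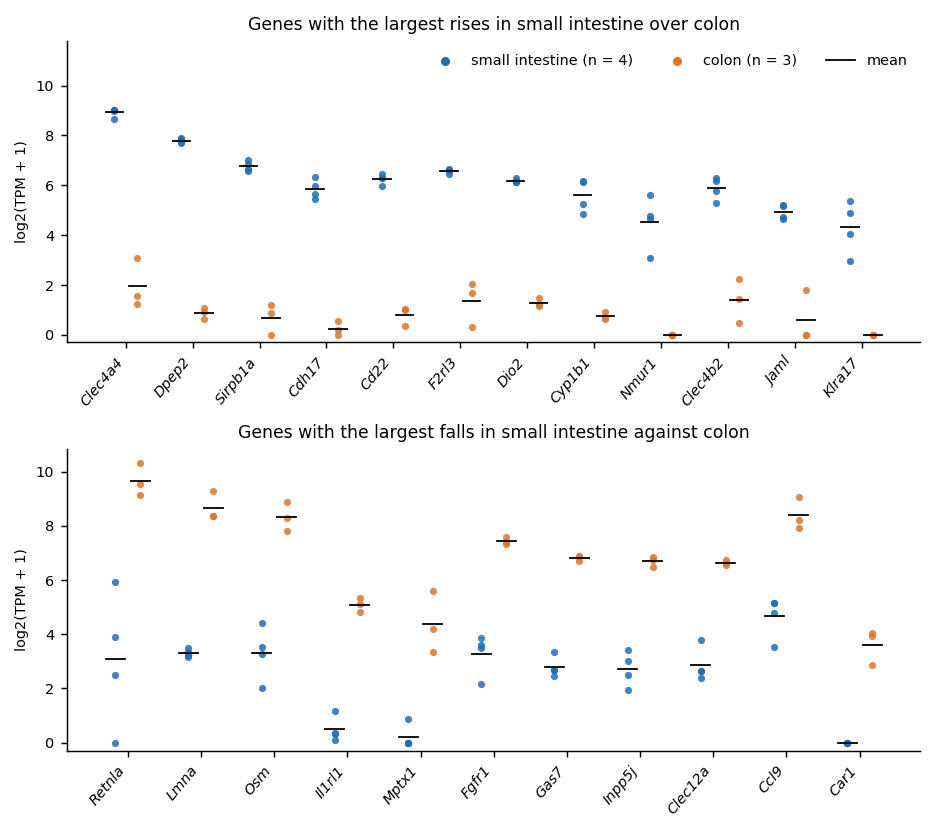
Log2(TPM + 1) of the 12 genes with the largest rises (upper panel) and 11 of the 12 with the largest falls (lower panel), each point a library, small intestine (blue, n = 4) left of colon (orange, n = 3), with lines at the means. Non-overlap of the groups was a condition for choosing these genes; Nmur1, Klra17 and Car1 lie at 0 in every library of one tissue.

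The largest falls in small intestine against colon included a secreted effector of type 2 immunity, structural and signalling proteins and surface receptors. A fall here is relative to colon and not to the other tissues, and non-overlap of the groups was a condition for choosing the largest falls. Retnla, a secreted protein induced by interleukin 4 and interleukin 13, had 60.06, 4.65, 0 and 13.88 TPM in small intestine, against 562.16, 749.5 and 1280.18 TPM in colon. It varied widely among small intestine libraries, yet the highest of them was far below the lowest colon library (log2 change -6.59 ± 1.06, SE, limma adjusted p = 6.62e-05). Retnla averaged 19.65 TPM in small intestine, 2679 TPM in skin, 20.22 TPM in lung, 15.4 TPM in spleen, 12.4 TPM in blood and 5.347 TPM in bone marrow. Lmna, which codes for the nuclear lamins A and C, had 9.17, 7.84, 10.16 and 8.35 TPM, against 330.17, 330.77 and 623.62 TPM. This was the smallest p of all genes tested (log2 change -5.38 ± 0.22, SE, limma adjusted p = 6.09e-15). Osm, the cytokine oncostatin M, had 10.5, 3.02, 20.25 and 8.75 TPM in small intestine, against 221.86, 316.12 and 473.83 TPM in colon (log2 change -5.03 ± 0.43, SE, limma adjusted p = 2.51e-09).

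Receptors with a known part in leukocyte activation were among the falls. Il1rl1, the receptor of interleukin 33, had 0.26, 0.29, 0.07 and 1.26 TPM in small intestine, against 27.02, 33.36 and 39.11 TPM in colon. Clec12a, an inhibitory lectin that senses uric acid crystals, had 5.29, 4.16, 12.72 and 5.3 TPM, against 92.14, 97.93 and 104.75 TPM. Their log2 changes were -4.59 ± 0.31 and -3.77 ± 0.22 (SE), with limma adjusted p at most 6.61e-11. For Clec12a the highest small intestine library was replicate 3, and non-overlap with colon was a condition of its choice. Fgfr1, a fibroblast growth factor receptor, had 3.48 to 13.49 TPM, against 161.3 to 193.95 TPM. Gas7, a protein that shapes the actin cytoskeleton, had 4.43 to 9.23 TPM, against 103.86 to 118.84 TPM. Inpp5j, a phosphoinositide phosphatase, had 2.84 to 9.64 TPM in small intestine, against 89.64 to 115.26 TPM in colon.

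A pair of genes known from colonic epithelium stood among the largest falls. Mptx1, a mucosal pentraxin, was listed at 0 in small intestine replicates 1 to 3 and had 0.82 TPM in replicate 4, against 9.29, 17.46 and 47.85 TPM in colon. Car1, a carbonic anhydrase, had a listed value of 0 in each of the 4 small intestine libraries, against 14.47, 6.28 and 15.41 TPM in colon. Of 7 tested markers of colonic epithelium, 0 were higher and 5 lower in small intestine in limma (2 to 6 lower under the other settings, 3 without small intestine replicate 2 and 2 in the fit of only the 7 small intestine and colon libraries; 0 and 6 at an unadjusted p under 0.05), and their summed level was 32.05 to 54.74 TPM in small intestine and 79.5 to 129.2 TPM in colon. The part of epithelial RNA in the values of Mptx1 and Car1 was not tested. In bulk samples fewer cells of a type and less RNA per cell cannot be told apart.

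Gene lists by function and cell type showed how the calls were spread. Every list count is to be read against all genes tested, of which 5.63% were higher and 7.1% lower in small intestine. Among the 30 lists plotted, the share of members higher in small intestine was largest for markers of activated intestinal eosinophils, and the share lower was largest for markers of circulating and basal eosinophils. Of 25 activated markers 12 were higher and 4 lower (median change 0.95), and of 19 circulating markers 1 was higher and 11 lower (median -1.55), against 5.63% and 7.1% of all genes. Among the activated markers are the genes Clec4a4, Dpep2, Cd22 and Nmur1 given above. Nmur1 is among the 12 but passed the filter on low values through small intestine alone, so its call is no support. The count of lower activated markers was 2 without small intestine replicate 1 or 2, or without colon replicate 1 or 2. The lists were drawn up with earlier results of these data known, so their direction is no independent evidence.

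**Figure D3:**
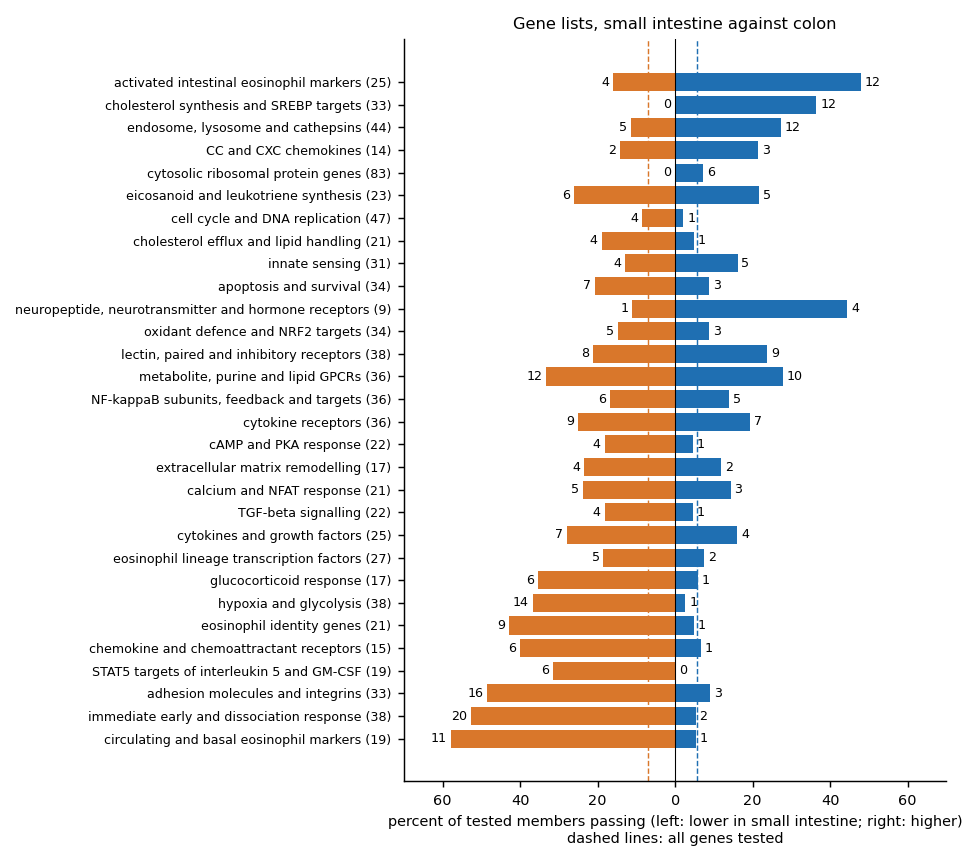
Percent of tested members that passed for 30 gene lists, higher in small intestine to the right (blue) and lower to the left (orange), with counts at the bars and the number tested beside each name, ordered by median change; dashed lines give 5.63% and 7.1%, the shares of all genes tested. Shown are lists with at least 9 tested members of which at least 5 passed; cholesterol synthesis has 12 members higher and 0 lower, and immediate early genes 2 higher and 20 lower.

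Inhibitory and paired receptors changed in both directions, 9 of 38 higher and 8 lower, with 9 to 10 higher and 8 to 12 lower under the other settings. Besides Clec4a4, Sirpb1a and Cd22, the collagen receptor Lair1 was higher. It had 204.44, 186.07, 284.52 and 215.63 TPM in small intestine, against 3.82, 30.23 and 8.53 TPM in colon (log2 change 4.29 ± 0.46, SE, limma adjusted p = 1.24e-07). Cd33, a sialic acid-binding receptor, had 167.88 to 237.05 TPM, against 12.9 to 19.65 TPM in colon. The direction among the Siglecs was mixed, since Siglecg, another inhibitory member, had 10.34 to 20.56 TPM in small intestine, against 85.75 to 130.6 TPM in colon (log2 change -2.81 ± 0.22, SE, limma adjusted p = 6.54e-10). Cd300ld3, of the CD300 family, had 0.75 TPM in small intestine replicate 1 and 0 in the other 3 libraries, against 9.31, 10.81 and 14.14 TPM in colon. Cd33, Siglecg and Cd300ld3 were named after their values had been seen.

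Receptors for metabolites, lipids and purines were also divided, 10 of 36 higher and 12 lower, and the lower calls no longer outnumbered the higher without colon replicate 1 or 2. Ptger3, a prostaglandin E2 receptor, had 28.83, 25.54, 18.79 and 25.08 TPM in small intestine, against 0.31, 0.28 and 0.37 TPM in colon (log2 change 4.26 ± 0.37, SE, limma adjusted p = 3.98e-09). Ffar2, the receptor of short-chain fatty acids, had 418.12, 310.97, 290.34 and 322.7 TPM, against 26.58, 28.34 and 24.63 TPM (log2 change 3.60 ± 0.25, SE, limma adjusted p = 6.61e-11). Both genes had narrow ranges in each tissue. Hcar2, the receptor of butyrate and niacin, had 758.09 to 1304.56 TPM in small intestine, against 81.75 to 128.16 TPM in colon. Gpr171 had 9 to 33.04 TPM, against 0 to 1.57 TPM. Gpr35, a receptor of kynurenic acid, went the other way with 8.36, 4.33, 16.69 and 17.13 TPM in small intestine, against 96.99, 94.81 and 124.39 TPM in colon (log2 change -3.23 ± 0.39, SE, limma adjusted p = 9.97e-07). Hcar2 and Gpr35 were named after their values had been seen.

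Of 9 receptors of neuropeptides, transmitters and hormones, 4 were higher and 1 lower. The 4 include Nmur1, which passed the filter on low values through small intestine alone, so its call is no support. In addition to Nmur1 these included Ramp1, the partner chain of the receptor of calcitonin gene-related peptide, with 19.81, 12.21, 23.32 and 25.95 TPM in small intestine, against 0.25, 0.98 and 1.5 TPM in colon (log2 change 3.49 ± 0.53, SE, limma adjusted p = 2.91e-05). The Mas-related receptors Mrgpra2b and Mrgpra2a had 4.14 to 38.59 TPM and 2.1 to 15.55 TPM in small intestine and were listed at 0 in all 3 colon libraries (limma adjusted p = 9.24e-07 and 8.45e-06).

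Chemokine genes were among the most abundant transcripts and differed in both directions. Ccl4, the macrophage inflammatory protein MIP-1 beta, had 8114.41, 7661.39, 8254.4 and 8586.31 TPM in small intestine, against 543.09, 683.75 and 1227.89 TPM in colon (log2 change 3.40 ± 0.65, SE, limma adjusted p = 0.00054). Ccl3, a ligand of CCR1, had 5210.78 to 7165.03 TPM, against 1413.1 to 2245.4 TPM in colon. Ccl6, another ligand of CCR1, was lower, with 2660.52, 3877.03, 4131.98 and 4506.61 TPM in small intestine, against 19441.5, 23045.69 and 21977.58 TPM in colon (log2 change -2.53 ± 0.14, SE, limma adjusted p = 5.27e-12). The related Ccl9 had 10.51 to 35.08 TPM, against 241.87 to 539.92 TPM. Of the 14 chemokines tested, 3 were higher and 2 lower.

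Cytokine genes were likewise mixed, 4 of 25 higher and 7 lower. Tnfsf14, the ligand LIGHT, had 6.14, 6.22, 7.54 and 12.74 TPM in small intestine, against 104.06, 101.34 and 103.83 TPM in colon (log2 change -3.56 ± 0.22, SE, limma adjusted p = 9.46e-12). Tnf had 75.66 to 91.12 TPM, against 245.48 to 355.42 TPM (log2 change -1.85 ± 0.46, SE, limma adjusted p = 0.00635, and 0.125 with a pseudocount of 0.1). Il27, a subunit of interleukin 27, had 10.99 to 35.52 TPM in small intestine, against 1.38 to 5.1 TPM in colon. Interleukin 1 genes, named after their values had been seen, were higher in small intestine. Il1a had 1402.94 to 2233.62 TPM in small intestine, against 563.26 to 712.56 TPM in colon (limma adjusted p = 0.00211). Il1b had 5478.94, 3235.75, 5149.62 and 5231.54 TPM, against 1586.67, 1784.91 and 2037.75 TPM (log2 change 1.38 ± 0.39, SE, limma adjusted p = 0.0167). The groups did not overlap for Il1b, as in 22.5% of all genes tested. Its call was lost without colon replicate 1 (limma adjusted p = 0.0704) and without colon replicate 2 (0.0524).

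Cytokine receptors had 7 of 36 members higher and 9 lower, and higher calls outnumbered lower ones without colon replicate 1 and in the fits of only the 7 small intestine and colon libraries, with and without the replicate block. Il1r2, the decoy receptor of interleukin 1, had 2215.17, 2532.26, 2108.12 and 2773.55 TPM in small intestine, against 277.31, 354.91 and 673.36 TPM in colon (log2 change 2.56 ± 0.36, SE, limma adjusted p = 9.09e-06). Il13ra1, a receptor chain of interleukin 4 and interleukin 13, had 15.68 to 30.61 TPM, against 1.89 to 3.38 TPM, a call that a pseudocount of 0.1 ended (limma adjusted p = 0.133). Csf3r, the receptor of granulocyte colony-stimulating factor, had 9.59 to 21.85 TPM in small intestine, against 0.47 to 1.76 TPM in colon. Among 19 targets of STAT5, the factor downstream of interleukin 5 and GM-CSF, 0 were higher and 6 lower in small intestine in limma (median change -0.61; 1 and 7 at an unadjusted p under 0.05). Besides Osm these included Socs3, a feedback inhibitor of cytokine signalling, with 0.18 to 3.21 TPM, against 13.11 to 26.9 TPM. Cish, an inhibitor induced by STAT5, had 30.96, 31.3, 55.1 and 51.49 TPM in small intestine, against 143.08, 144.22 and 186.9 TPM in colon (log2 change -1.92 ± 0.39, SE, limma adjusted p = 0.00103). The kinase Pim2 had 0.95 to 10.66 TPM, against 33.04 to 41.9 TPM.

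Of 15 receptors of chemoattractants 1 was higher and 6 were lower in small intestine, and 8 did not pass the test, with 3 lower without small intestine replicate 1 or without colon replicate 1. C3ar1, the receptor of the complement fragment C3a, had 12.33, 25.67, 15.78 and 17.27 TPM, against 102.23, 92.12 and 93.25 TPM in colon (log2 change -2.41 ± 0.29, SE, limma adjusted p = 7.55e-07). S1pr4, a sphingosine 1-phosphate receptor, had 0.19 to 4.4 TPM, against 18.4 to 26.32 TPM, and Cmklr1, the chemerin receptor, 2.37 to 5.84 TPM, against 24.39 to 29.45 TPM. The member that was higher was Cxcr2, a receptor of neutrophil-attracting chemokines, with 38.95, 14.05, 14.92 and 16.3 TPM in small intestine, against 0, 9.36 and 0.35 TPM in colon. Colon replicate 2 lay near the lower small intestine libraries (limma adjusted p = 0.000573). Cxcr2, Csf3r and Ngp are also neutrophil markers; of 21 such markers 4 were higher and 1 lower, and their summed level, 6765 to 8826 TPM in small intestine and 12320 to 14670 TPM in colon, was mostly Retnlg (5727.76 to 7678.74 TPM and 11513.83 to 13835.66 TPM), whose own fall did not pass after quantile normalisation (limma adjusted p = 0.267). The part of neutrophil RNA in these receptors was not tested.

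Of 33 adhesion molecules 3 were higher and 16 lower in small intestine, and 14 did not pass (median change -0.74). Itgb7, the integrin chain that pairs with the alpha 4 chain in gut homing, had 30.88, 58.97, 121.67 and 59.22 TPM in small intestine, against 366.63, 348.88 and 458.41 TPM in colon (log2 change -2.67 ± 0.25, SE, limma adjusted p = 1.18e-08). Replicate 3 was the highest small intestine library here, as it was for Clec12a. Itga2, a collagen-binding integrin chain, had 0 to 0.7 TPM, against 5.29 to 11.15 TPM. Itgax, which codes for CD11c, was higher, with 312.62, 285.95, 317.45 and 337.32 TPM in small intestine, against 108.69, 83.7 and 74.51 TPM in colon (log2 change 1.82 ± 0.40, SE, limma adjusted p = 0.00185). S100a6, a calcium-binding protein of circulating eosinophils named after its values had been seen, had 18.21 to 74.77 TPM, against 235.36 to 513.99 TPM. Anxa1, an anti-inflammatory phospholipid-binding protein, had 2.81 to 8.96 TPM in small intestine, against 29.19 to 56.73 TPM in colon.

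Transcription factors of the eosinophil lineage had 2 of 27 members higher (7.41%) and 5 lower (18.5%), against 5.63% and 7.1% of all genes. Klf2, a factor of quiescence and trafficking, had 50.17, 10.37, 29.94 and 23.14 TPM in small intestine, against 267.03, 353.49 and 274.43 TPM in colon (log2 change -3.53 ± 0.43, SE, limma adjusted p = 1.34e-06). Id1, an inhibitor of basic helix-loop-helix factors, had 0.73 to 7.07 TPM, against 19.58 to 49.46 TPM. Prdm1, which codes for the repressor Blimp-1, was higher, with 9.17 to 16.92 TPM in small intestine and 0.41 to 2.94 TPM in colon, a call that a pseudocount of 0.1 ended (limma adjusted p = 0.097). The receptors of retinoic acid were lower. Rara had 3.63 to 8.01 TPM, against 26.11 to 34.8 TPM in colon, Rarg 0.76 to 2.19 TPM, against 15.92 to 17.86 TPM, and Rxra 9.72 to 14.34 TPM, against 22.36 to 36.4 TPM. Of 14 genes of retinoic acid metabolism and response these 3 passed in limma, and 0 were higher (1 without colon replicate 1; 2 at an unadjusted p under 0.05).

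Immediate early genes, which are induced within minutes by many stimuli and also by tissue digestion, had 2 of 38 members higher in small intestine (1 without any single library other than small intestine replicate 2) and 20 lower (median change -0.94). Dusp1, a phosphatase of MAP kinases, had 1484.52, 978.48, 1155.65 and 1012.99 TPM in small intestine, against 3545.44, 4158.89 and 5596.12 TPM in colon (log2 change -1.93 ± 0.23, SE, limma adjusted p = 9.24e-07). Fosl1, an AP-1 subunit, had 5.86 to 17.31 TPM, against 49.53 to 80.49 TPM. The part of tissue handling in these values was not tested. Egr2, a factor of calcineurin signalling, was 1 of the 2 that were higher (limma adjusted p = 0.0384), and its call was lost without any 1 of the 7 libraries (limma adjusted p 0.0639 to 0.112). Rcan1, a calcineurin inhibitor that NFAT induces, had 37.98, 73.96, 69.25 and 93.24 TPM in small intestine, against 5.08, 8.65 and 4.81 TPM in colon (log2 change 3.25 ± 0.43, SE, limma adjusted p = 3.89e-06). Calcium and NFAT response genes had no common direction, with 3 of 21 higher (14.3%) and 5 lower (23.8%, median change -0.14). Under the other settings these counts were 1 to 4 higher and 2 to 5 lower.

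NF-kappaB genes had no common direction, with 5 of 36 higher and 6 lower. Plaur, the urokinase receptor, had 2707.11, 3251.45, 2271.96 and 2420.52 TPM in small intestine, against 449.22, 710.49 and 429.18 TPM in colon (log2 change 2.35 ± 0.27, SE, limma adjusted p = 5.6e-07). Tnfaip3, the feedback inhibitor A20, had 173.51 to 281.43 TPM, against 778.76 to 1076.88 TPM in colon. The count of higher NF-kappaB genes was 3 without colon replicate 1 or 2.

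Of 33 tested genes of cholesterol synthesis, 12 were higher and 0 lower in small intestine in limma (36.4% against 5.63% of all genes), 21 did not pass, and the median change was 0.81. At an unadjusted p under 0.05, 19 were higher and 1 lower, and 1 was also called lower without small intestine replicate 3. They spanned the pathway, whose genes are induced by the factor SREBP2 when cell sterols are low. Hmgcs1, an enzyme of the early steps, had 173.64, 84.56, 171.78 and 224.06 TPM in small intestine, against 46.68, 49.49 and 53.76 TPM in colon (log2 change 1.61 ± 0.36, SE, limma adjusted p = 0.0027). Pmvk, a mevalonate pathway kinase, had 240.35, 208.84, 195.31 and 256.12 TPM, against 37.61, 33.65 and 27.32 TPM (log2 change 2.74 ± 0.30, SE, limma adjusted p = 1.62e-07). Idi1, the isopentenyl diphosphate isomerase, had 85.03 to 188.42 TPM, against 18.35 to 35.38 TPM. In all of these the lowest small intestine library lay above the highest colon library, as groups did not overlap in 22.5% of all genes tested.

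Enzymes of later steps were also higher. Fdps, the farnesyl diphosphate synthase, had 275.5, 105.08, 130.48 and 264.04 TPM in small intestine, against 35.95, 14.45 and 18.74 TPM in colon (log2 change 2.996 ± 0.485, SE, limma adjusted p = 6.75e-05). Fdft1, the squalene synthase, had 68.24, 28.47, 40.3 and 81.56 TPM, against 2.69, 11.36 and 5.56 TPM (log2 change 2.94 ± 0.50, SE, limma adjusted p = 0.00014). Sqle, the squalene epoxidase, had 45.34, 28.03, 28.86 and 73.6 TPM, against 2.33, 6.57 and 2.2 TPM (log2 change 3.27 ± 0.58, SE, limma adjusted p = 0.000215). Small intestine replicates 1 and 4 were the higher ones in each of these 3 genes. Msmo1, a sterol demethylase, had 212.76 to 344.29 TPM, against 35.6 to 61.72 TPM, and Hsd17b7, a sterol reductase, 8.18 to 25.71 TPM, against 1.82 to 4.91 TPM. The regulators rose too. Srebf2, the gene of SREBP2, had 231.31, 219.45, 228.25 and 215.76 TPM in small intestine, against 83.41, 86.26 and 73.03 TPM in colon (log2 change 1.46 ± 0.19, SE, limma adjusted p = 3.08e-06), and Insig1, the sterol sensor that retains SREBP2, had 86.64 to 162.43 TPM, against 24.64 to 30.95 TPM. The count of higher members ranged from 9 to 17 under the other settings, and with a pseudocount of 0.1 Idi1 (limma adjusted p = 0.0701) and Hsd17b7 (0.112) did not pass. Genes of cholesterol efflux and lipid handling, which oxysterol-sensing LXR receptors induce, had 1 of 21 members higher (0 without small intestine replicate 3 or 4 or colon replicate 1 or 2) and 4 lower. Lpcat3, a phospholipid-remodelling enzyme, had 40.11 to 66.25 TPM, against 145.38 to 181.21 TPM, and Mylip, which degrades the LDL receptor, 35.34 to 41.9 TPM, against 82.66 to 121.53 TPM.

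**Figure D4:**
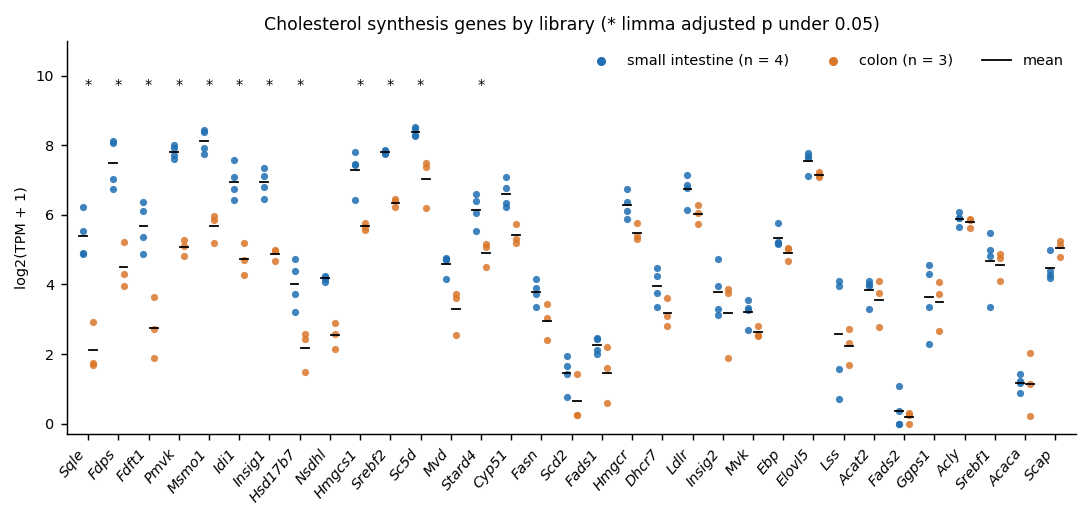
Log2(TPM + 1) of the 33 tested genes of cholesterol synthesis and SREBP regulation, each point a library, small intestine (blue, n = 4) left of colon (orange, n = 3), with lines at the means, ordered by log2 change; asterisks mark limma adjusted p under 0.05. The 12 marked genes are all higher in small intestine, from Sqle at 3.27 on the log2 scale to Stard4 at 1.24.

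The promoters of 3 of these enzymes are shown because these 3 genes were higher in small intestine and the windows hold motifs known for sterol regulation. The windows run from 250 bases before to 50 after the start of the gene, are from RefSeq (build GRCm38.p6) and are written 5′ to 3′ on the strand of the gene. They are Hmgcs1 at chr13:119690101-119690400 (plus strand), Idi1 at chr13:8885356-8885655 (plus strand) and Hsd17b7 at chr1:169969156-169969455 (minus strand). Capitals mark CCAAT, the letters bound by NF-Y, on either strand (ATTGG on the opposite one), and TCACNCCAC, a sterol regulatory element, on either strand; the motifs do not overlap here.
Hmgcs1: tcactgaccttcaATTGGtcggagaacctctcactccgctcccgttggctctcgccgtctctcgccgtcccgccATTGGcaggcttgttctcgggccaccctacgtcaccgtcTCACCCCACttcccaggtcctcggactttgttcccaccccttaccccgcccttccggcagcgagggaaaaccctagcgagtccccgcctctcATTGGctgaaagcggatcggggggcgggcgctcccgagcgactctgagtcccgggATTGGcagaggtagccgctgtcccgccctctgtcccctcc
Idi1: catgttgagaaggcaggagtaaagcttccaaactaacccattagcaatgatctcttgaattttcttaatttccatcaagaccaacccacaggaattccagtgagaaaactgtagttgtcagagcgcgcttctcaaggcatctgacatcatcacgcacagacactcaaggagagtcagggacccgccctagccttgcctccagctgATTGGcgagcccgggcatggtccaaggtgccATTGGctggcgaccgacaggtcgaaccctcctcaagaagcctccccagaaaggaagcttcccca
Hsd17b7: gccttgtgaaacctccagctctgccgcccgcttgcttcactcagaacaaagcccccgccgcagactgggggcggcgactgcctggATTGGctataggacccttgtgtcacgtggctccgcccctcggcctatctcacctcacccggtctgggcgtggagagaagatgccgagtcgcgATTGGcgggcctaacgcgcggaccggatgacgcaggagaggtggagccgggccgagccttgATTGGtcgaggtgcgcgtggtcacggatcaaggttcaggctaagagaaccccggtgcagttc
CCAAT was found 4 times in the Hmgcs1 window, 2 times in that of Idi1 and 3 times in that of Hsd17b7, and TCACNCCAC once, in Hmgcs1. Of the 12 genes that were higher, 8 had a promoter in the table, and all 8 held CCAAT. Of the 21 tested members that did not pass, 17 had one and 13 (76.5%) held CCAAT. The share of all 32851 promoters was 37.4% for CCAAT and 1.24% for TCACNCCAC, and of the 7962 tested genes with a promoter 43.3% held CCAAT. A match describes the letters in the window and is neither a site nor a cause.

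Cyp1b1, a cytochrome P450 and a known target of the aryl hydrocarbon receptor, a sensor of dietary indoles and microbial ligands, was among the 12 largest rises. It had 72.19, 68.43, 27.63 and 37.11 TPM in small intestine, against 0.65, 0.89 and 0.55 TPM in colon (log2 change 4.84 ± 0.35, SE). Cyp1b1 passed the filter on low values through small intestine alone, so its limma p-value is not given as support. Ahrr, the receptor's repressor, had 21.25, 12.17, 18.68 and 13.06 TPM, against 5.65, 7.77 and 3.58 TPM (log2 change 1.39 ± 0.33, SE, limma adjusted p = 0.00404, 0.268 with a pseudocount of 0.1, and 0.0602 in a fit of the 7 gut libraries with the replicate number as a block). The groups did not overlap for Ahrr, as in 22.5% of all genes tested. For Cyp1b1 non-overlap was a condition of its choice among the largest rises. The other 7 of the 9 pathway members tested did not pass. The receptor gene Ahr had 189.88 to 220.27 TPM in small intestine, against 146.93 to 175.46 TPM in colon (limma adjusted p = 0.195), and the target Tiparp 245.36 to 394.78 TPM, against 147.5 to 218.38 TPM (limma adjusted p = 0.18, and 0.0252 in a fit of the 7 gut libraries alone). Ahr and Tiparp were named after their values had been seen.

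The promoters of both genes that were higher are shown for the core of the response element of the aryl hydrocarbon receptor. Capitals mark GCGTG on either strand (CACGC on the opposite one) in RefSeq windows of build GRCm38.p6, Cyp1b1 at chr17:79715012-79715311 (minus strand) and Ahrr at chr13:74292282-74292581 (minus strand).
Cyp1b1: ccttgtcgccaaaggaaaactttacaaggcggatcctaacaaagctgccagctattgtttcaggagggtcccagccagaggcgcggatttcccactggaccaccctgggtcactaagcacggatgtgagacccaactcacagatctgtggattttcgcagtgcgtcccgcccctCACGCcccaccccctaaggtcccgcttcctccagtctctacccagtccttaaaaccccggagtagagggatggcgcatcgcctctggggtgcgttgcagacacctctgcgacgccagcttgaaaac
Ahrr: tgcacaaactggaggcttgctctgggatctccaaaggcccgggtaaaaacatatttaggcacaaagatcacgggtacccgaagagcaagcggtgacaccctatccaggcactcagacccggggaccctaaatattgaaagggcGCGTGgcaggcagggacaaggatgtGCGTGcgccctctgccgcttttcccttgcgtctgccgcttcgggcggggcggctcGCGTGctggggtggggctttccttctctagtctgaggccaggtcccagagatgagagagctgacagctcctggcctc
The core was found once in the Cyp1b1 window and 3 times in that of Ahrr. It is a common pentamer, held by 32.4% of all promoters and by 57.3% of the tested genes with a promoter. Of the 5 pathway members that had a promoter and did not pass, 4 held it.

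Of 44 lysosomal genes 12 were higher (27.3%) and 5 lower (11.4%) in small intestine (median change 0.27). Cd68, a lysosomal glycoprotein, had 101.11, 80.21, 82.69 and 105.6 TPM in small intestine, against 7.66, 3.25 and 6.41 TPM in colon (log2 change 3.84 ± 0.62, SE, limma adjusted p = 5.93e-05). Acp5, the tartrate-resistant acid phosphatase, had 550.11, 465.33, 440.23 and 637.05 TPM, against 29.91, 54.14 and 43.32 TPM (log2 change 3.62 ± 0.36, SE, limma adjusted p = 4.15e-08). Cst7, an inhibitor of cysteine cathepsins, was lower, with 9.08, 17.47, 26.35 and 23.73 TPM in small intestine, against 184.23, 186.28 and 199.2 TPM in colon (log2 change -3.34 ± 0.27, SE, limma adjusted p = 1.08e-09). Cd68 and Lyz2 are also macrophage markers, and Lyz2, lysozyme, had 178.7 to 317.73 TPM, against 17.52 to 22.66 TPM. Of 13 such markers 4 were higher and 2 lower (1 lower without small intestine replicate 1 or 2 or colon replicate 4), with summed levels of 1046 to 1365 TPM in small intestine and 987.7 to 1088 TPM in colon, and the part of macrophage RNA was not tested.

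Of 14 genes of MHC class II and costimulation 3 were higher and 1 was lower in small intestine, and 10 did not pass (median change 0.94). The higher count was 2 to 5 under the other settings. Pdcd1lg2, the gene of PD-L2, had 59.41, 78.53, 37.49 and 26.57 TPM in small intestine, against 3.76, 4.1 and 3.72 TPM in colon (log2 change 3.29 ± 0.36, SE, limma adjusted p = 2.04e-07). Cd274, the gene of PD-L1, had 201.93, 252.08, 189.25 and 155.62 TPM, against 56.28, 58.77 and 59.66 TPM (log2 change 1.74 ± 0.29, SE, limma adjusted p = 0.000105). The colon libraries were nearly equal to each other in both genes. H2-Oa, a chain that modulates class II peptide loading, was lower, with 5.26 to 8.18 TPM, against 16.03 to 33.68 TPM. Of 15 genes of the interferon gamma response 4 were higher and 0 lower in limma (median change 0.99; 5 and 0 at an unadjusted p under 0.05). Gbp8, a guanylate-binding protein, had 5.88 to 17.46 TPM, against 0 to 1.9 TPM in colon, and Gbp4 3.86 to 10.05 TPM in small intestine and a listed value of 0 in all colon libraries. Of 38 type I interferon genes 4 were higher (10.5%, against 5.63% of all genes) and 0 lower in limma. At an unadjusted p under 0.05 these counts were 9 and 0. The higher count was 2 without small intestine replicate 2 and 1 without colon replicate 2.

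Leukotriene and prostaglandin genes had 5 of 23 members higher and 6 lower (3 lower without colon replicate 4), and higher calls outnumbered lower ones there and in the fit of only the 7 small intestine and colon libraries. Lta4h, the enzyme that makes leukotriene B4, had 1075.88, 1047.21, 1040.43 and 1233.91 TPM in small intestine, against 341.71, 318.69 and 331.66 TPM in colon (log2 change 1.73 ± 0.14, SE, limma adjusted p = 1.08e-09). Its libraries stayed within narrow ranges in both tissues, as did those of Dpep2 given above.

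Of 38 genes of hypoxia and glycolysis 1 was higher and 14 were lower in small intestine, and 23 did not pass (median change -0.42). Hk3, a hexokinase, had 2.38, 0.18, 4.19 and 0.61 TPM, against 28.27, 12.78 and 17.22 TPM in colon (log2 change -3.02 ± 0.45, SE, limma adjusted p = 2.48e-05). Egln3, an oxygen-sensing prolyl hydroxylase, had 0.7 to 2.24 TPM, against 5.72 to 14.1 TPM, and Ddit4, an inhibitor of mTOR, 1.26 to 3.04 TPM, against 10.44 to 20.26 TPM. Of 75 genes of oxidative phosphorylation 2 were higher and 2 lower (2.67% each, below the shares of all genes). Without a single library 0 or 1 were lower. Of 34 genes of oxidant defence and NRF2 targets 3 were higher (8.82%) and 5 lower (14.7%), and 26 did not pass (median change -0.05). The higher count was 1 without small intestine replicate 3 or 4 or colon replicate 4, and 0 without colon replicate 2. Gpx1, a peroxide-reducing selenoenzyme, had 620.83, 632.97, 808.68 and 905.67 TPM in small intestine, against 2099.67, 2033.55 and 1839.99 TPM in colon (log2 change -1.44 ± 0.14, SE, limma adjusted p = 2.42e-08). Gpx4, which protects membrane lipids, had 411.45, 413.95, 475.53 and 462.96 TPM, against 978.63, 1090.56 and 1149.76 TPM (log2 change -1.28 ± 0.10, SE, limma adjusted p = 1.28e-09). Slc40a1, the iron exporter ferroportin, was higher, with 295.39 to 546.4 TPM, against 42.69 to 105.07 TPM.

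Of 34 genes of apoptosis and survival 3 were higher (8.82%) and 7 lower (20.6%) in small intestine, and 24 did not pass (median change -0.035). Cdkn1a, the cell cycle inhibitor p21, had 196.69, 122.45, 202.4 and 147.39 TPM in small intestine, against 1612.28, 1848.73 and 2051.88 TPM in colon (log2 change -3.47 ± 0.24, SE, limma adjusted p = 6.61e-11). Bbc3, the pro-apoptotic PUMA, had 0 to 2.34 TPM, against 12.13 to 14.21 TPM, and Bid, another pro-apoptotic member, 6.11 to 12.11 TPM, against 30.54 to 44.2 TPM. Ripk3, the kinase of necroptosis, was higher, with 71.79 to 125.55 TPM in small intestine, against 8.55 to 13.49 TPM in colon (limma adjusted p = 0.00112, and 0.0882 with a pseudocount of 0.1). The higher count was 1 without small intestine replicate 1, 3 or 4 or without any 1 colon library, and 0 with a pseudocount of 0.1.

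Among 22 genes of TGF-beta signalling 1 was higher (4.55%) and 4 lower (18.2%). The higher count was 0 without colon replicate 4, and the lower count 2 without colon replicate 1. Thbs1, thrombospondin 1, an activator of latent TGF-beta, had 337.4 to 654.96 TPM, against 1459.1 to 1779.15 TPM, and Tgfbr2, the type II receptor, 19.63 to 30.3 TPM, against 47.5 to 69.78 TPM. Adamdec1, a secreted metalloprotease-like protein of the gut, was higher, with 2988.04 to 3794.76 TPM in small intestine, against 845.54 to 938.9 TPM in colon (log2 change 1.88 ± 0.50, SE, limma adjusted p = 0.0108).

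Other lists gave few calls in number, to be read against 5.63% higher and 7.1% lower among all genes tested. Of 8 granule protein genes 1 was higher (12.5%) and 0 lower in limma (2 and 0 at an unadjusted p under 0.05). That was Ear2, with 11.96, 13.97, 13.56 and 0 TPM in small intestine, against 0, 2.18 and 0 TPM in colon; the groups overlapped, its adjusted p of 0.0471 in limma was 0.13 or more without small intestine replicate 1, 2 or 3 or colon replicate 1 or 4, and it has near copies. The granule gene Prg2 had 26.63 to 74.32 TPM, against 50.67 to 104.19 TPM (limma adjusted p = 0.452). Unfolded protein response genes gave 1 higher and 1 lower of 26 (3.85% each). Cytosolic ribosomal protein genes gave 6 higher of 83 (7.23%), and 3 without colon replicate 2 or 4.

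Markers of other cells were looked at in the same way. Olfm4, known from small intestinal crypts and from neutrophils, had 175.97, 67.86, 86.86 and 132.51 TPM in small intestine, against 12.71, 5.35 and 4.19 TPM in colon (limma adjusted p = 0.000249, and 0.0543 with a pseudocount of 0.1). Only 4 markers of small intestinal epithelium were tested, of which 1 was higher and 1 lower (0 to 2 lower without a single library). The summed level of 3 B and plasma cell markers was 75.24 to 1005 TPM in small intestine and 2.81 to 18.81 TPM in colon, and 2 were higher (1 without small intestine replicate 1 or 3 or without colon replicate 2 or 4). The high value was Jchain in small intestine replicate 3, 908.83 TPM, against 8.33, 27.19 and 12.93 TPM in the other 3 libraries, and Cd22 is in the same list. Cd22 itself was 61.41 TPM or more in every small intestine library. Erythroid and platelet markers summed to 98.32 to 17840 TPM in small intestine and 123.9 to 384.8 TPM in colon. Of 13 such markers 2 were higher and 1 lower (5 higher without small intestine replicate 2 and 1 without any other single library), and the platelet chemokine Ppbp had 37.04 to 110.71 TPM, against 0.42 to 25.42 TPM. The part of these cells in the results was not tested.

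The other 5 tissues show on which side of the gut pair the other eosinophils lay. Their mean was nearer to colon than to small intestine for 481 of the 552 genes higher in small intestine (87.1%) and for 452 of the 696 lower (64.9%), against 5750 of all 9806 genes tested (58.6%). The small intestine mean was the highest of all 7 tissues for 421 of the 552, and the lowest of all 7 for 383 of the 696. The colon mean was the highest for 174 of the 696 genes and the lowest for 60 of the 552. Cdkn1a and Retnla illustrate the range of the other tissues, with 9.76 to 724.77 TPM and 0.71 to 3069 TPM in their 17 libraries. For Cdkn1a the 3 colon libraries were thus above all 17 others as well as above small intestine. For Cyp1b1 the highest of the 17 was 0.84 TPM, and for Itgax 18.06 TPM.

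Genes that differed along the gut were then looked up in the 11 sorted libraries, which are independent of the tissue libraries and come from small intestine only. Among sorted libraries 733 of 7982 genes tested (9.18%) were higher and 419 (5.25%) lower in Nmur1+ than in Nmur1- cells. Of 515 genes higher in small intestine than in colon and tested in both tables, 209 (40.6%) were higher and 19 (3.69%) lower in Nmur1+ cells. Of 567 genes lower in small intestine, 14 (2.47%) were higher and 121 (21.3%) lower in Nmur1+ cells. The count of 14 was 9 without Nmur1+ replicate 1 and 8 without Nmur1+ replicate 8 or Nmur1- replicate 5. The median log2 change in the sort was 0.57 for the genes higher in small intestine, -0.19 for those lower and 0.21 for all 7927 genes tested in both. The sorted split depended on scaling, with 361 genes higher and 592 lower after median-ratio scaling. The median change of all genes in the sort was 0.22 as deposited and 0.045 after that scaling. After scaling 142 of the genes higher in small intestine were higher and 23 lower in Nmur1+ cells, and of those lower in small intestine 5 were higher and 151 lower.

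**Figure D5:**
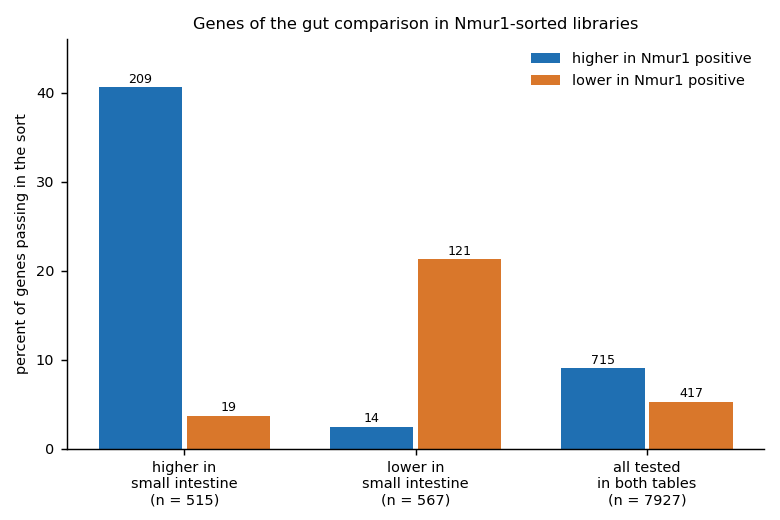
Percent of genes that were higher (blue) or lower (orange) in Nmur1+ against Nmur1- small intestine eosinophils (limma adjusted p under 0.05, with counts above the bars), for the 515 genes higher and the 567 genes lower in small intestine than in colon and for all 7927 genes tested in both tables. The blue bar is tallest for the genes higher in small intestine (40.6%), and the orange bar for those lower (21.3%).

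Named genes of the gut comparison that were higher in Nmur1+ cells included enzymes and adhesion molecules. Dpep2 averaged 286.8 ± 41.84 TPM in Nmur1+ cells and 71.78 ± 20.49 TPM in Nmur1- cells (SD, n = 5 and 6; log2 change 2.02, limma adjusted p = 2.31e-06). Cdh17 averaged 48.07 ± 19.17 TPM in Nmur1+ cells and 9.323 ± 6.278 TPM in Nmur1- cells (log2 change 2.38, limma adjusted p = 0.000467), and Jaml 45.06 ± 9.699 TPM and 8.488 ± 6.156 TPM (log2 change 2.56, limma adjusted p = 0.000573). Rcan1 averaged 122.6 TPM in Nmur1+ and 13.19 TPM in Nmur1- cells. Of the sterol genes, Hmgcs1 was also higher, with 331.7 TPM in Nmur1+ and 132 TPM in Nmur1- cells. So were Sqle, with 82.25 TPM and 26.72 TPM, and Insig1, with 154.4 TPM and 65.7 TPM (limma adjusted p at most 0.00993). The other sterol genes were not counted in the sort, so these do not stand for the list.

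Not every gene of the gut difference was called in the sort. Lair1 averaged 212.8 TPM in Nmur1+ and 167.2 TPM in Nmur1- cells (limma adjusted p = 0.246), and Ffar2 270.1 TPM and 232.3 TPM (limma adjusted p = 0.385). Clec4a4 averaged 532.5 TPM in Nmur1+ and 320.8 TPM in Nmur1- cells, with limma adjusted p = 0.0557, and 0.000331 with the replicate number as a block. Of the genes lower in small intestine, Cst7 averaged 3.754 TPM in Nmur1+ and 41.96 TPM in Nmur1- cells (log2 change -3.49, limma adjusted p = 7.93e-05). Clec12a averaged 0.874 TPM in Nmur1+ and 8.552 TPM in Nmur1- cells (log2 change -2.54, limma adjusted p = 0.000215), and Itgb7 33.94 TPM and 124.6 TPM (log2 change -1.86, limma adjusted p = 0.00112). Gas7 averaged 7.616 TPM in Nmur1+ and 7.888 TPM in Nmur1- cells (limma adjusted p = 0.899), both far below its level in colon in the other table, which was normalised separately. Il1a, higher in small intestine than in colon, was lower in Nmur1+ cells, with 1437 TPM in Nmur1+ and 2149 TPM in Nmur1- cells (log2 change -0.59, limma adjusted p = 0.0119).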

How the data were processed

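The authors deposited a table of TPM, a length- and library-scaled transcript level, for 24 tissue libraries and another for 11 sorted libraries, each already restricted to expressed genes. The submitters' processing notes name build mm10 with RSEM 1.3.3, STAR 2.7.5c and cutadapt 2.10. RSEM may divide reads among near-identical genes. The single-cell sample was not used here. Sequencing depth is unknown, and the labels give no batch.

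Tissue genes reaching 1 TPM in 3 or more libraries, and sorted genes reaching it in 5 or more, entered limma 3.58.1 (R 4.3.3) as log2(TPM + 1) (trended, two-sided, Benjamini-Hochberg over all genes tested). The members and lists were chosen with earlier results of these data known. Named were the 12 largest rises and falls among passing genes with non-overlapping groups and a higher mean of 10 TPM or more, the 4 or fewer most changed passing members per list, and Nmur1. Genes named outside this rule after their values were seen were Siglecf, Il5ra, Epx, Prg2, Cd33, Siglecg, Hcar2, Gpr35, Il1a, Il1b, S100a6, Ccr3, Ahr, Tiparp, Jchain and some sterol genes.

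In the sort, deviations of same-numbered libraries had correlations of 0.164 to 0.225 over 4 pairs (numbers from the labels). Differently numbered libraries gave -0.175 to 0.194, so these values cannot settle whether the numbers pair libraries. The sort counts given are from the fit without a replicate block. With the block 868 genes were higher and 474 lower in Nmur1+ cells. Alternatives were other pseudocounts, filters, scalings, library sets, robust fits, a replicate block and leaving out each library. The fits were tested on simulated data. Some genes that the rule named are not reported here.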

Additional observations from a re-analysis of the deposited data

Results flagged for a closer look

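In 161 groups of 4 to 6 libraries, 1 library lay far from the others in 13, where chance gives about 1 in 20. In small intestine replicate 1, Ccr3 was low (483.96 TPM), and Cd300ld3 (0.75 TPM) and Cxcr2 (38.95 TPM) were high. In replicate 2, Il1b was low at 3235.75 TPM. In replicate 3, Clec4a4 was low (404.87 TPM) and Tnf high (91.12 TPM). In replicate 4, Mptx1 (0.82 TPM), Il27 (35.52 TPM) and Il13ra1 (30.61 TPM) were high, and Ear2 (0 TPM) and S1pr4 (0.19 TPM) low. Among sorted libraries, Nmur1 was 0 TPM in Nmur1- replicate 3, the lowest, and Cd22 was 53.78 TPM in Nmur1- replicate 2, the highest.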

How the results depend on the processing

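The count of 1248 genes between small intestine and colon ranged from 1135 to 1354 under the other settings and from 959 to 1178 when single libraries were left out. The log2 change of Nmur1 ranged from 2.48 to 7.78 with the pseudocount. The difference in genes with at least 1 TPM was -0.3333 without small intestine replicate 3 and 10 to 78.5 without each other library. Deviations of same-numbered small intestine and colon libraries had correlations of 0.015, 0.004 and 0.043, and differently numbered ones gave -0.067 to 0.054. These values cannot settle whether the numbers pair tissue libraries. With the number as a block, 1225 genes passed over 24 libraries and 1147 over the 7. Over the 7 libraries with no block, 609 were higher and 592 lower. The share of genes lower in small intestine whose other 5 tissues lay nearer to colon was 59.5% with a pseudocount of 5 and 71.2% after quantile normalisation. In the sort, the block gave 1342 genes and single libraries left out 867 to 1161. With 4 and 3 libraries and unknown depth, low values are the least certain.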
